A study of Homo sapiens with 2 samples.

Results

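A set of 10 transcription factor genes of the islet was followed: PDX1, NKX6-1, NKX2-2, MNX1, PAX4, PAX6, ISL1, NEUROD1, RFX6 and INSM1. They were chosen by symbol and not by a rule on their values, though with earlier results of these data known. All 10 were found among the 33694 genes of the files. The cells came from eBCs (enhanced beta clusters) made from human embryonic stem cells, of the genotype iSOX9KO in the Mel1-INS-GFP line. This line reports insulin transcription with GFP. Every cell of both groups carries a doxycycline-inducible Cas9 and guide RNAs against SOX9, and the line is a single clone. The first group received no DOX and the other received DOX at 2 ug/ml from day 12 of differentiation. By the study's methods eBC aggregates were formed from GFP-high sorted cells and then cultured further. The sort favoured cells with active insulin transcription, and its effect on the classes sequenced was not tested. Each condition was sequenced as 1 10X Genomics library. No spread between replicates therefore exists, no difference between conditions or classes was tested, and every interval below is a 95% interval for counting error only.

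These factors fall into a few working groups. PDX1, NKX6-1 and MNX1 are homeodomain proteins that establish and hold beta cell identity, and PAX4 favours the beta and delta fates over the alpha fate during development. PAX6 and ISL1 are needed by hormone-producing islet cells of every type. NEUROD1 and RFX6 act downstream of NEUROG3 in cells that have committed to the endocrine lineage, and NKX2-2 and INSM1 act in endocrine precursors and stay on in mature islet cells.

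The targeted gene SOX9 (chr17:72121020-72126416, plus strand) was counted at 3.0 CPM (2.81 to 3.20) over the cells labelled no DOX and at 3.78 CPM (3.56 to 4.0) over the cells labelled DOX, where CPM is unique molecular identifiers (UMIs) per 1000000 UMIs of the same cells. It was not lower under the label DOX over all cells, where duct-like cells gave 641 of 946 and 862 of 1147 of its UMIs, and every direction between the libraries below is one between labels. Whether the labels are exchanged was not tested, and an exchange would turn the sign of each ratio between the libraries. A small insertion or deletion made by Cas9 need not lower a UMI count, and whether this applies here was not tested. The level of SOX9 was 254 and 282 CPM in duct-like cells, where it is normally active, and 1.00 and 0.956 CPM over the endocrine classes. In beta-like cells it was 0.311 CPM (0.223 to 0.422) and 0.212 CPM (0.146 to 0.298) and in delta-like cells 1.29 and 1.07 CPM, lower under the label DOX with overlapping intervals. Progenitor-like cells gave 402 of the 579 SOX9 UMIs of the endocrine classes. There SOX9 was higher under the label DOX, at 2.96 CPM (2.56 to 3.41) and 3.54 CPM (3.07 to 4.06), with overlapping intervals. Alpha-like cells held 0.266 and 0.252 CPM and the proliferating class 0.237 and 0.764 CPM. The libraries held 30288 (no DOX) and 31817 (DOX) barcodes with medians of 15991 and 14431 UMIs. After filtering 44921 cells were kept, and 141 of their barcodes occurred in both libraries. Throughout, the first value of a pair is from the library labelled no DOX and the other from that labelled DOX.

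The cells fell into 7 clusters, made without the 10 factors among the clustering genes. Of these, 6 were named from marker genes: beta-like (16906 cells, 29 of 31 markers raised), beta cell progenitor-like (10610 cells, 15 of 15), alpha-like (9175 cells, 15 of 15), delta-like (4604 cells, 15 of 15), proliferating progenitor-like (970 cells, 15 of 15) and duct-like (331 cells, 14 of 15). The last cluster, 2325 barcodes with a median of 70.8% mitochondrial UMIs, was not named. Beta-like cells held INS at 194230 CPM, alpha-like cells at 136140 CPM and delta-like cells at 135690 CPM. The level was 66162 CPM in progenitor-like cells, 89926 CPM in the proliferating class and still 17074 CPM in duct-like cells. The alpha-like class held 5053 and 4122 cells and the delta-like class 2644 and 1960. Stromal, acinar and stem cell markers were near 0, with 0 of 5 genes of each list reaching 5 CPM in either library.

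PDX1 (chr13:27920000-27926313, plus strand, in GRCh38 as are all positions here) was highest in beta-like cells, with 99 CPM (97.3 to 101) and 113 CPM (112 to 115). Delta-like cells followed closely at 91.5 and 95.4 CPM, and the ranges of the libraries in these classes did not overlap. Without hormone and mitochondrial UMIs in the totals delta-like cells ranked first, with a log2 ratio of 0.12 over beta-like cells. Alpha-like cells held 35.7 and 30.1 CPM, the lowest of the 6 classes. PDX1 was thus high in beta-like and delta-like cells alike, and the alpha-like over beta-like log2 ratio was -1.68 (-1.73 to -1.63). Duct-like cells, at 46.8 and 65.5 CPM, overlapped the progenitor-like cells at 59.7 and 59.8 CPM.

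NKX6-1 (chr4:84491985-84499292, minus strand) had the largest difference of the members between alpha-like and beta-like cells. Its level was 114 and 116 CPM in beta-like cells and 9.36 and 11.3 CPM in alpha-like cells, a log2 ratio of -3.49 (-3.58 to -3.41). Delta-like cells held 23.8 and 35.8 CPM. The highest levels were outside the beta-like class, in duct-like cells (153 and 137 CPM) and progenitor-like cells (145 and 140 CPM), whose ranges overlapped. With the finer clusters the progenitor-like over beta-like ratio turned from 0.31 to -0.17, where 2 clusters have no name, that led by GPC3 with 199 CPM of NKX6-1 and that led by GHRH with 68.1 CPM. NKX6-1 is also a factor of the multipotent pancreatic progenitor.

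MNX1 (chr7:156994051-157010663, minus strand) was low in the same classes as NKX6-1. Alpha-like cells held 31.7 and 31.0 CPM and delta-like cells 35.5 and 30.5 CPM, overlapping ranges, against 107 and 104 CPM in beta-like cells. The level was highest in progenitor-like cells, at 233 and 243 CPM, and next in duct-like cells, at 119 and 174 CPM. Beta-like cells therefore held an intermediate level of MNX1.

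PAX4 (chr7:127610292-127618142, minus strand) was counted at 83.1 and 83.3 CPM in beta-like cells and at 117 and 114 CPM in progenitor-like cells. Delta-like cells held 73.3 and 69.1 CPM, which left alpha-like cells, at 16.4 and 14.6 CPM, with the lowest level of the endocrine classes. The alpha-like over beta-like log2 ratio was -2.42 (-2.49 to -2.35).

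PAX6 (chr11:31784779-31817961, minus strand) was highest in alpha-like cells. Alpha-like cells held 287 and 292 CPM and beta-like cells 84.8 and 103 CPM, a log2 ratio of 1.61 (1.58 to 1.63). Delta-like cells, at 47.2 and 45 CPM, and progenitor-like cells, at 45.4 and 46.6 CPM, were lower and overlapped. Duct-like cells held the least, at 10.7 and 9.17 CPM. PAX6 activates the glucagon gene as well as the insulin gene.

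ISL1 (chr5:51383448-51394730, plus strand) was counted at 386 and 441 CPM in delta-like cells and at 394 and 411 CPM in alpha-like cells, overlapping ranges that lay above the 262 and 265 CPM of beta-like cells. Progenitor-like cells were far lower, at 88.3 and 81.7 CPM, a log2 ratio to beta-like cells of -1.63 (-1.66 to -1.60). Duct-like cells held 21.4 and 25.2 CPM. The proliferating class lay between, at 142 and 165 CPM. ISL1 was thus highest in delta-like, alpha-like and beta-like cells and lowest in progenitor-like and duct-like cells.

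NEUROD1 (chr2:181668295-181680827, minus strand) and RFX6 (chr6:116877212-116932161, plus strand) varied least among the endocrine classes. NEUROD1 stood at 542 and 672 CPM in beta-like cells and 791 and 868 CPM in alpha-like cells, and neighbouring classes from progenitor-like to proliferating progenitor-like overlapped. RFX6 stood at 81.1 and 84.1 CPM in beta-like cells and 114 and 128 CPM in alpha-like cells. In duct-like cells both were low, at 59.1 and 71.1 CPM for NEUROD1 and 11.1 and 12.8 CPM for RFX6.

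NKX2-2 (chr20:21511017-21514064, minus strand) and INSM1 (chr20:20368104-20370949, plus strand) were highest in the progenitor-like cells. NKX2-2 stood at 266 and 242 CPM there and 91.7 and 83.7 CPM in beta-like cells, a log2 ratio of 1.54 (1.52 to 1.57). INSM1 stood at 674 and 698 CPM and 263 and 279 CPM, a log2 ratio of 1.33 (1.32 to 1.35). For both genes the proliferating progenitor-like cells came next, with 113 and 96.4 CPM of NKX2-2 and 409 and 372 CPM of INSM1.

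**Figure D1:**
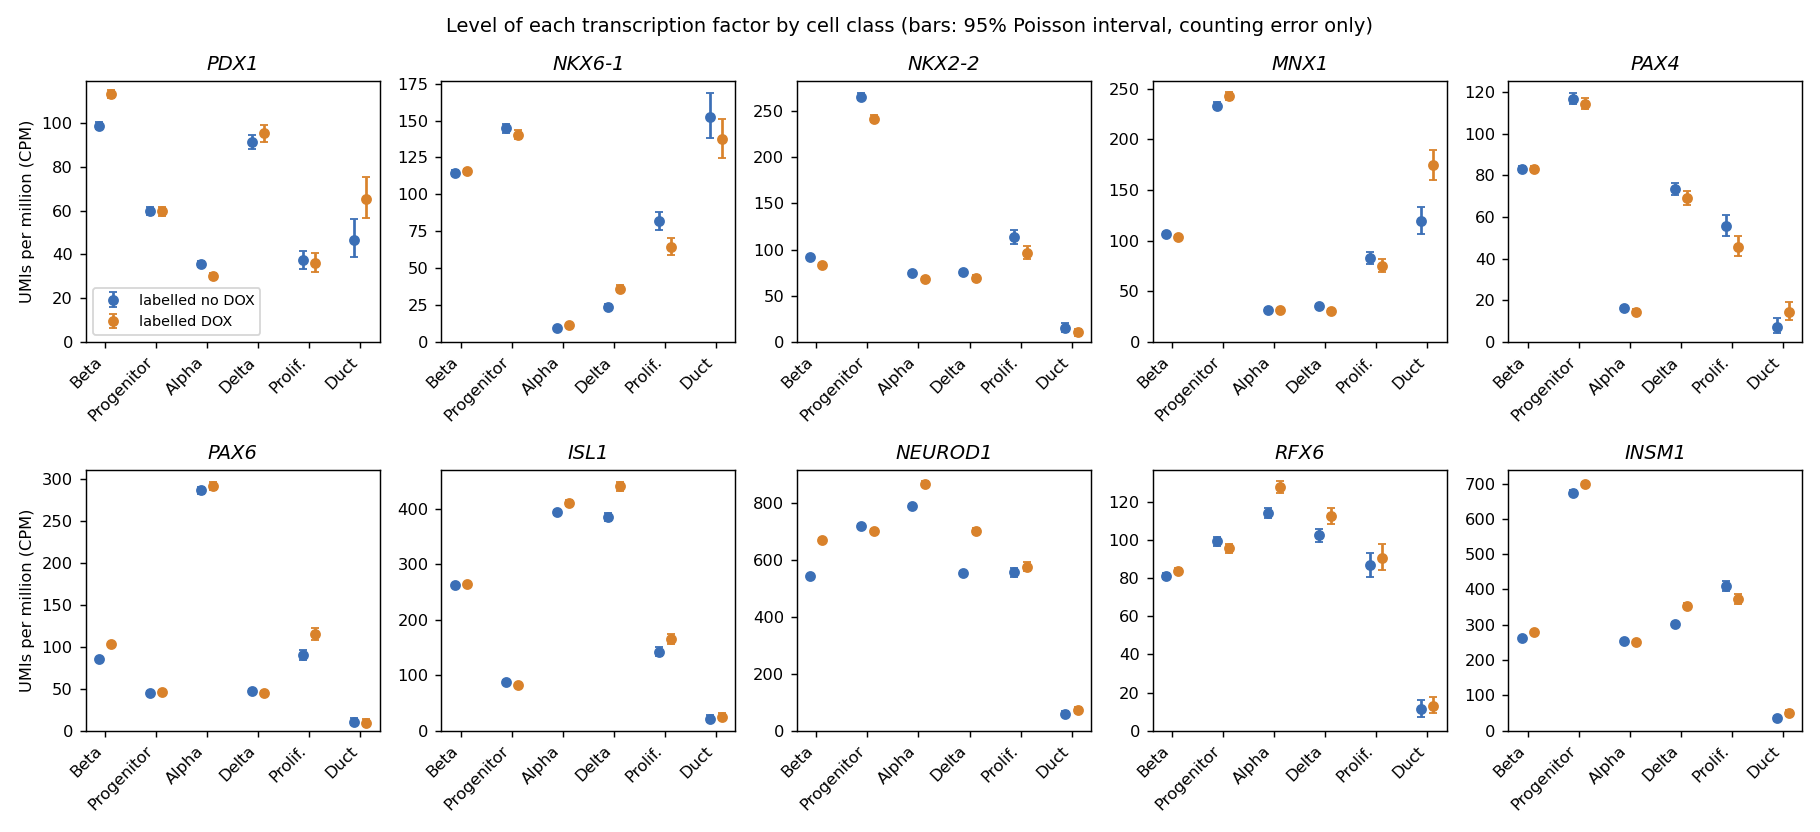
Level of each of the 10 factors in UMIs per 1000000 (vertical axis, from 0) in the 6 named classes (horizontal axis), by labelled library, with bars for the 95% Poisson interval. PDX1 and PAX4 are low in alpha-like cells but not in delta-like cells, NKX6-1 and MNX1 are low in both, PAX6 is highest in alpha-like cells, and NKX2-2 and INSM1 are highest in progenitor-like cells.

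Counted against beta-like cells with a log2 ratio of at least 1 in size, progenitor-like cells held, of the 10 members, 3 higher (NKX2-2, MNX1, INSM1) and 2 lower (PAX6, ISL1). Over all 10988 genes with at least 5 CPM in either class, 26.4% were higher and 3.82% lower by that measure, and the median log2 ratio was 0.59. The count of higher members was thus close to the background. Relative to that median 0 members were higher and 3 were lower, PDX1 (-1.43) joining PAX6 and ISL1. In no class were the shares of all genes past the limit counted after such centring, so these counts have no matching background. PDX1 also passed the limit in 4 other settings (-1.01 to -1.39), and MNX1 did not without hormone and mitochondrial UMIs in the totals (0.98). Relative to the median NKX2-2 had the largest ratio of the members, at 0.95, and the small positive ratios of NKX6-1, PAX4, NEUROD1 and RFX6 became negative, at -0.28, -0.11, -0.37 and -0.35. PAX6 was just past the limit, at -1.05 (-1.09 to -1.0) over both libraries and -0.90 in the library labelled no DOX alone.

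Alpha-like cells held, of the 10 members, 1 higher (PAX6) and 4 lower (PDX1, NKX6-1, MNX1, PAX4), where 6.06% of 10339 genes were higher and 5.33% lower and the median of all genes was 0.04. These 5 calls were made under every other setting tried. Delta-like cells held, of the 10 members, 0 higher and 3 lower (NKX6-1, MNX1, PAX6), against a background of 5% and 5.88% of 10302 genes. NKX6-1 at -2.0 (-2.07 to -1.93) and MNX1 at -1.65 (-1.72 to -1.59) were well past the limit. PAX6 in delta-like cells, at -1.03 (-1.09 to -0.98), fell short of it when hormone and mitochondrial UMIs were left out of the totals (-0.72), with doublets kept (-0.57), in the library labelled no DOX alone (-0.85) and relative to the median of all genes (-0.97). With the former totals the ratios of PDX1, NKX2-2 and PAX4 in delta-like cells, -0.20, -0.26 and -0.22, turned positive at 0.12, 0.06 and 0.10, and SST alone made up 218150 CPM of that class.

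Proliferating progenitor-like cells held, of the 10 members, 0 higher and 1 lower (PDX1), at -1.54 (-1.66 to -1.42), where 19.1% of 11093 genes were higher and 3.42% lower. Relative to the median of all genes, 0.33, PAX4 (-1.03) and ISL1 (-1.11) also passed the limit, and with doublets kept PDX1 did not (-0.45). Duct-like cells held, of the 10 members, 0 higher and 7 lower (NKX2-2, PAX4, PAX6, ISL1, NEUROD1, RFX6, INSM1), where 24% of 11484 genes were higher and 13.6% lower. The log2 ratios of these 7 ran from -3.49 for ISL1 to -2.66 for INSM1, and with doublets kept NKX2-2, RFX6 and INSM1 did not pass. PDX1 (-0.90), NKX6-1 (0.33) and MNX1 (0.51) were the remaining members, and PDX1 and NKX6-1 are known from pancreatic progenitors before endocrine commitment. PDX1 lay near the limit and passed it relative to the median of all genes (-1.19) and in 5 other settings (-1.02 to -1.24), and NKX6-1 stood at -0.01 without hormone and mitochondrial UMIs in the totals.

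**Figure D2:**
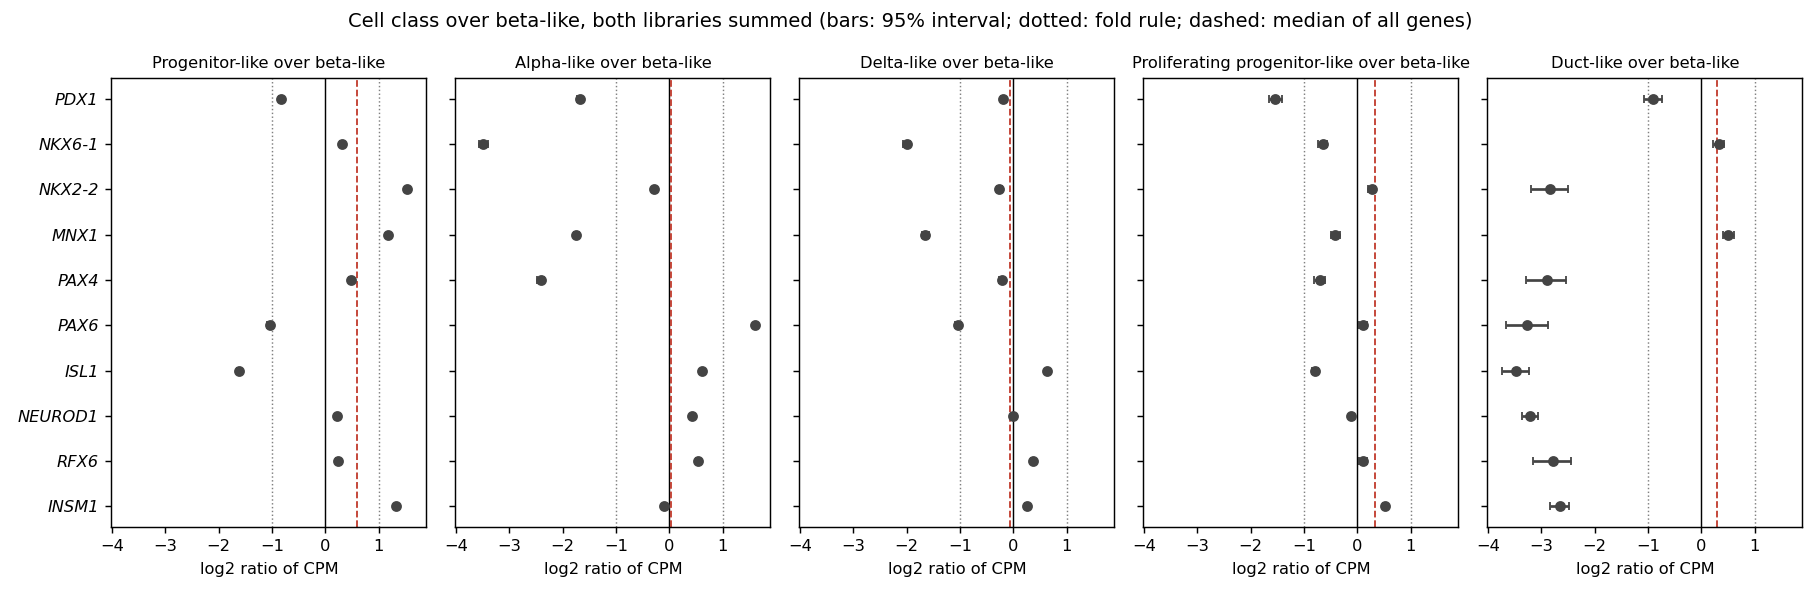
Log2 ratio of CPM in each of 5 classes over beta-like cells (horizontal axis) for the 10 factors, both libraries summed, with 95% intervals, dotted lines at a log2 ratio of 1 in either direction and a dashed line at the median of all genes. That median is 0.59 for progenitor-like and 0.04 for alpha-like cells, and 7 of the 10 factors lie below -2 in duct-like cells.

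Single cells were then compared after every cell was thinned to 5000 UMIs, which left out 374 and 301 shallower beta-like cells, of 7035 and 9871. It left out a larger part of the alpha-like class, 613 and 491 cells of 5053 and 4122. The alpha-like shares below therefore describe the deeper cells of that class. NKX6-1 had a UMI in 40.2% (39.0 to 41.4) and 39.8% (38.8 to 40.8) of beta-like cells, and in 4.66% (4.06 to 5.32) and 6.03% (5.28 to 6.86) of alpha-like cells. PDX1 had a UMI in 38.6% and 41.7% of beta-like cells. Alpha cells are not known to use NKX6-1, and whether its UMIs there come from RNA outside the cell, from doublets or from the cells themselves was not tested.

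PAX6 had a UMI in 73.0% and 73.4% of alpha-like cells, 33.2% and 38% of beta-like cells and 6.16% and 1.13% of duct-like cells. ISL1 had a UMI in 67.9% and 66.7% of beta-like cells and 5.48% and 6.21% of duct-like cells. Duct cells are not known to use either gene, and both shares were far below those of the endocrine classes. NEUROD1 was found in 86.1% and 89.4% of beta-like cells and still in 17.8% and 25.4% of duct-like cells. The median depth before thinning was 17980 and 14740 UMIs in beta-like cells, 13300 and 12420 in alpha-like cells and 14210 and 14650 in duct-like cells. Without thinning NKX6-1 was found in 72.7% and 69.8% of beta-like cells.

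PDX1 and NKX6-1 were found together in 17.4% (16.5 to 18.3) and 17.9% (17.1 to 18.7) of beta-like cells. In progenitor-like cells the share was 11% and 11.8%, in duct-like cells 11.6% (6.93 to 18.0) and 8.48% (4.82 to 13.6), in the proliferating class 4.11% and 6.67%, in delta-like cells 3.75% and 6.14% and in alpha-like cells 1.04% and 0.689%. At this depth a cell that expresses a factor at a low level is often without a UMI, so these are not shares of expressing cells. A beta-like cell showed a median of 5 of the 10 factors (quartiles 4 and 6) in either library, as did a progenitor-like cell. The median was 4 in alpha-like cells, in delta-like cells and in the proliferating class, and 2 in duct-like cells. The number followed depth, with a median of 8 in beta-like cells without thinning and 3 at 2500 UMIs.

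**Figure D3:**
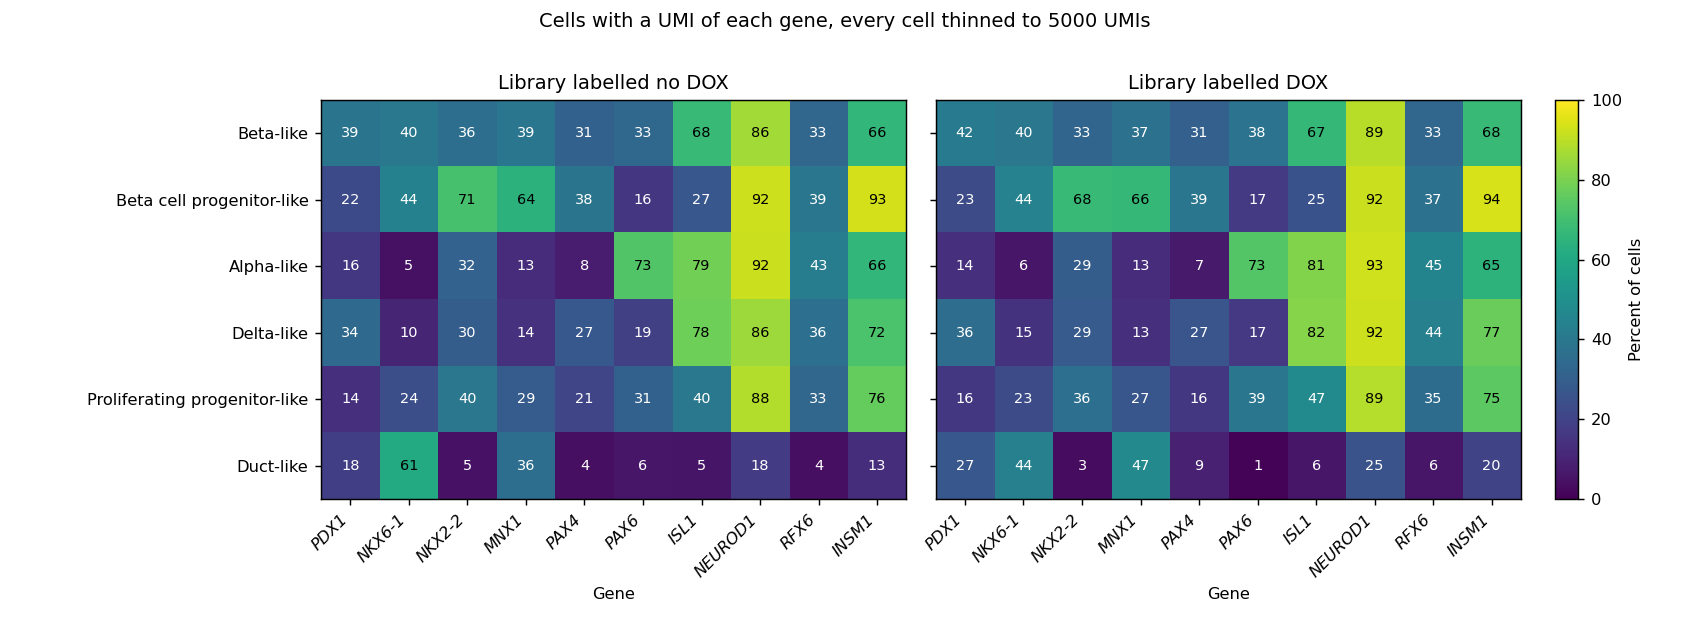
Percent of cells with a UMI of each factor (colour) in each class after thinning to 5000 UMIs, by labelled library. NEUROD1 is found in 86.1% and 89.4% of beta-like cells and in 17.8% and 25.4% of duct-like cells, and NKX6-1 in 4.66% and 6.03% of alpha-like cells.

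At a finer clustering 7 clusters covered the beta-like and progenitor-like cells, and they are given in the order of their INS level. That order is a ranking, and no sequence in time was measured. Progenitor-like cells led by CA2 and TAC1 (1293 cells) had the lowest INS level, 20700 CPM, followed by progenitor-like cells led by NTRK3 (6708 cells, 41407 CPM). A cluster led by GPC3 and L3MBTL4 (2860 cells, 128306 CPM) met no class name. Beta-2-like cells, led by ASIC1 and WSCD2 (5316 cells), stood at 167337 CPM. The name Beta-1-like was met by a cluster led by the metallothionein genes MT1B and MT1M (1115 cells, 174333 CPM), with only 7 of 16 markers raised. It was also met by a cluster led by MFAP4 and MXRA8 (5233 cells, 198086 CPM), with 10 of 16 raised. A cluster led by GHRH and IAPP (5109 cells), without a name, had the highest INS level at 232071 CPM. Among its leading genes GHRH, IAPP, LOXL4, PCP4 and NPPC are on the Beta-1 marker list and NEFL on the Beta-2 list.

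MNX1 was highest in the CA2 cluster, at 357 and 347 CPM, next in the NTRK3 cluster at 261 and 261 CPM, and between 87.4 and 161 CPM in the other 5. ISL1 ran the other way, with 21.0 and 23.9 CPM in the CA2 cluster, 68.8 and 65.2 CPM in the NTRK3 cluster, 135 and 139 CPM in the GPC3 cluster and 308 and 305 CPM in Beta-2-like cells. It was lower again in the 3 clusters with more INS, at 193 and 171 CPM in the metallothionein cluster, 253 and 270 CPM in the MFAP4 cluster and 248 and 242 CPM in the GHRH cluster. PAX6 shared that low start, with 11.1 and 13.5 CPM in the CA2 cluster. The CA2 cluster therefore combined high MNX1 and INSM1 (697 and 688 CPM) with little PAX6 and ISL1.

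The GPC3 cluster held the most NKX6-1 of the 7, at 195.4 and 205 CPM, the most PAX4, at 142 and 141 CPM, and the most NEUROD1, at 782 and 789 CPM. NKX2-2 and INSM1 peaked in the NTRK3 cluster, at 313 and 278 CPM and 744 and 771 CPM. In the cluster with the highest INS level both were lower, at 70.8 and 69.5 CPM and 208 and 234 CPM. PDX1 was highest in Beta-2-like cells, at 121 and 134 CPM, and the MFAP4 cluster followed at 113 and 129 CPM. No median or share of all genes was taken across these 7 clusters. Between the classes the median log2 ratio of all genes was 0.59 in progenitor-like over beta-like cells. The higher levels of MNX1, NKX2-2 and INSM1 in the progenitor-like clusters thus have no background beside them.

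Between Beta-1-like and Beta-2-like cells 0 members reached a log2 ratio of 1, where 2.94% of 10146 genes were higher and 4.54% lower and the median of all genes was -0.16. The largest differences were for PAX4, at 62.0 against 116 CPM, a ratio of -0.90 (-0.94 to -0.85), and NKX6-1, at 100 against 168 CPM, a ratio of -0.74 (-0.77 to -0.70), both lower in Beta-1-like cells. RFX6 had the largest positive ratio, at 0.47 (0.43 to 0.52), followed by MNX1 at 0.31 (0.28 to 0.35). Without the metallothionein cluster PAX4 stood at -0.83 and NKX6-1 at -0.57, while PDX1 moved from -0.27 to -0.07. That cluster held 58.5 and 61.4 CPM of NKX6-1 and 51.1 and 62.3 CPM of PDX1. The unnamed GHRH cluster, led in part by Beta-1 markers, was on neither side of this comparison. It held 72.0 and 77.4 CPM of PAX4, 66.1 and 69.6 CPM of NKX6-1, 76.8 and 86.5 CPM of RFX6 and 88.0 and 87.4 CPM of MNX1. How the ratios would change with it among the Beta-1-like cells was not tested.

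**Figure D4:**
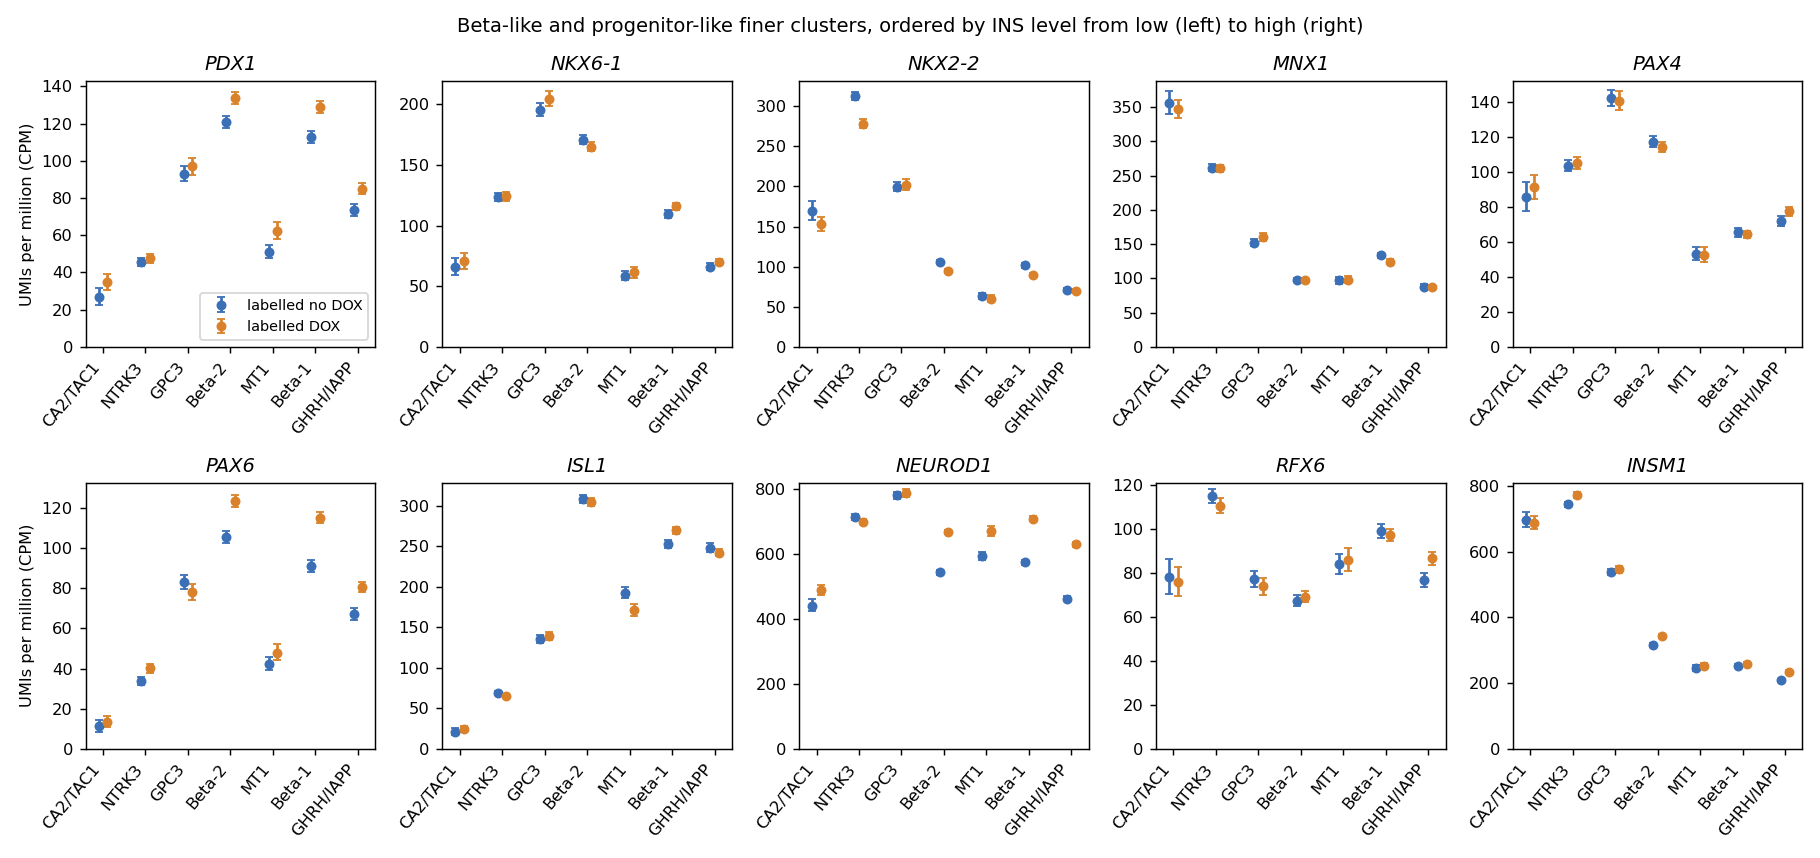
Level of each factor in UMIs per 1000000 (vertical axis, from 0) in 7 finer clusters ordered by INS level from low to high (horizontal axis), by labelled library, with 95% Poisson intervals. MNX1 and INSM1 are high at the left end, ISL1 and PAX6 are lowest there, and NKX6-1 and PAX4 are highest in the GPC3 cluster.

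Members were also compared by their pattern over all 13 finer clusters in both libraries, 26 points in all, on log2(CPM + 1) values. Clusters share libraries and each cluster enters once per library, so the correlations are a description. NEUROD1 and RFX6 were each other's closest gene among 9042 genes compared (r = 0.96). NKX2-2 and INSM1 were also alike (r = 0.95), as were ISL1 and PAX6 (r = 0.85) and NKX6-1 and MNX1 (r = 0.76), while ISL1 and MNX1 ran opposite (r = -0.78). PDX1 had no close partner among the members, its highest r being 0.58, with NKX6-1. For NEUROD1 and RFX6 r fell to 0.66 over 24 points without the duct-like cluster, where both are low, and in the GPC3 cluster NEUROD1 was at its highest of the 7 while RFX6 stood at 77.2 and 73.8 CPM. The other pairs had r of 0.91, 0.78, 0.76 and -0.85 without that cluster, in the same order. PAX4 was then the member most like NKX6-1 (r = 0.89, from 0.51).

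The gene most like each of the other 8 members was ANGPT2 for PDX1 (0.90), LRRN3 for NKX6-1 (0.92), TMOD2 for NKX2-2 (0.97), NCS1 for MNX1 (0.94), C1QL1 for PAX4 (0.94), TRPM5 for PAX6 (0.89), ERO1B for ISL1 (0.95) and ZHX3 for INSM1 (0.98). The next were PLXNA2 and PYCR1 for PDX1, KAZN and MYCN for NKX6-1, CELF3 for NKX2-2, MYRF and S100A16 for MNX1 and PRICKLE2 and KCNJ6 for PAX4. For the rest they were GRIA3 and CDK5RAP1 for PAX6, ST6GALNAC5 and SYT4 for ISL1, TMOD2 and C1orf127 for INSM1, PNMA2 and KCNMA1 for NEUROD1 and PODXL2 and PROC for RFX6. Without the duct-like cluster r with the 8 closest genes ran from 0.85 to 0.96, and of all 10 members ISL1 alone had the same closest gene, ERO1B. The next genes of NEUROD1 and RFX6 then had r from 0.62 to 0.67.

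The sequences before the starts of ISL1, PAX6, NKX6-1 and MNX1 are shown because the first pair ran opposite to MNX1 over the clusters. Each is the 250 bases before the first start listed for the gene by RefSeq (GRCh38.p14), 5′ to 3′, with TAAT on either strand, the core of homeodomain sites, and CANNTG, the E-box that factors such as NEUROD1 bind, in capitals.
ISL1, chr5:51383198-51383447, plus strand: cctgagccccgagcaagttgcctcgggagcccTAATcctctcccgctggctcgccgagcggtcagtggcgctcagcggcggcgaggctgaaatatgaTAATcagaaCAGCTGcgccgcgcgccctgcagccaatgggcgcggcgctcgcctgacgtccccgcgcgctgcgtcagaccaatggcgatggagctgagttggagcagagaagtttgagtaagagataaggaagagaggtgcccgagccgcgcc
PAX6, chr11:31817962-31818211, minus strand: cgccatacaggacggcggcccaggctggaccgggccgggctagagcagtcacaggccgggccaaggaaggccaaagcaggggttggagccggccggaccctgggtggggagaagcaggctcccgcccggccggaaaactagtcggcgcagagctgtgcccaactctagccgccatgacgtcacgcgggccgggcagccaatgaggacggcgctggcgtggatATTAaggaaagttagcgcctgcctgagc
NKX6-1, chr4:84499293-84499542, minus strand: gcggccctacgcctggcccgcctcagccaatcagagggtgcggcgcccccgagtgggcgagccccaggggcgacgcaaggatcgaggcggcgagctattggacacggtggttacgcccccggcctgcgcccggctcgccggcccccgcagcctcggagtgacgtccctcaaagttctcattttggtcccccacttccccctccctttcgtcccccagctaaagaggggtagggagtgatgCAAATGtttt
MNX1, chr7:157010664-157010913, minus strand: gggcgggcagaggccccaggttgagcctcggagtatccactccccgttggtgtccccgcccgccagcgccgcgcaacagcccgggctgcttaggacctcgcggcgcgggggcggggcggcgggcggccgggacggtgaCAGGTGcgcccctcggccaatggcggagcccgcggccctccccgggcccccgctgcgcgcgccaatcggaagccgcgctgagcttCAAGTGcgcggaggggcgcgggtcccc
ISL1 carried 2 TAAT and 1 CANNTG, PAX6 carried 1 TAAT, NKX6-1 carried 1 CANNTG and MNX1 carried 2 CANNTG. This holds for the first starts only. MNX1 has 2 listed starts, and the other carried 2 TAAT and 1 CANNTG. PAX6 has 9 listed starts, and some of the others carried a CANNTG, such as start 2 with 2. Over 35116 promoters 47.4% held a TAAT and 61.8% a CANNTG in the same window. Of the 7 members with an entry, 3 held a TAAT and 4 a CANNTG before their first start. PDX1, RFX6 and INSM1 were not in the table.

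Between the labelled libraries 0 members reached a log2 ratio of 0.5 in size over all cells, where 0.402% of 10444 genes were higher and 0.613% lower under the label DOX. In beta-like cells 0 members did, where 0.274% and 0.945% of 9843 genes were higher and lower. The members' median log2 ratio in beta-like cells was 0.03, against -0.01 over all genes. With 1 library each, treatment and culture cannot be told apart.

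NEUROD1 had the largest ratio of the members in beta-like cells, at 542 and 672 CPM, a log2 ratio of 0.31 (0.30 to 0.32). It was higher under the label DOX in each beta-like group of the finer clustering, at 544 and 668 CPM in Beta-2-like cells, 575 and 710 CPM in the MFAP4 cluster and 594 and 672 CPM in the metallothionein cluster. The cluster led by GHRH and IAPP held 463 and 630 CPM. Delta-like cells had a ratio of 0.34 (0.31 to 0.37), alpha-like cells 0.13 (0.12 to 0.15) and progenitor-like cells -0.04 (-0.06 to -0.02), and whether these differ was not tested.

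PAX6 in beta-like cells had a ratio of 0.29 (0.25 to 0.32) and PDX1 0.20 (0.16 to 0.23). In alpha-like cells PDX1 stood at -0.25 (-0.34 to -0.15), the opposite direction. NKX2-2 had the lowest ratio in beta-like cells, at -0.13 (-0.17 to -0.10), and its ratio was below 0 in all 6 classes.

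NKX6-1 in delta-like cells was the only member past 0.5 outside the duct-like class, at 23.8 and 35.8 CPM, a ratio of 0.59 (0.45 to 0.73), where 0.459% of 10019 genes were higher and 0.499% lower. It did not reach 0.5 with doublets kept (0.44) or in cells thinned to 5000 UMIs (0.49). The share of delta-like cells with a UMI of NKX6-1 was 10.3% (9.15 to 11.6) and 14.5% (12.9 to 16.2). INS in these cells was 143840 and 123710 CPM, and its part in the result was not tested.

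In the duct-like class, of 152 and 179 cells, the members past 0.5 were 3 higher (MNX1, PAX4, INSM1) and 1 lower (NKX2-2), where 10.2% of 11033 genes were higher and 11.7% lower. The interval for NKX2-2 there, -0.53 (-1.27 to 0.20), included 0, and each of the 4 calls was lost with doublets kept. With at least 2000 UMIs PDX1 (0.54), PAX6 (0.57, from -0.22), ISL1 (1.13), NEUROD1 (0.78) and RFX6 (1.10) also passed 0.5 while MNX1 and NKX2-2 did not, and in thinned cells PAX6 stood at -1.45. Progenitor-like cells had 0 members past 0.5, with 0.573% of genes higher and 0.536% lower. Alpha-like cells had 0, with 0.582% and 0.723%, and the proliferating class had 0, with 2.24% and 2.34%.

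**Figure D5:**
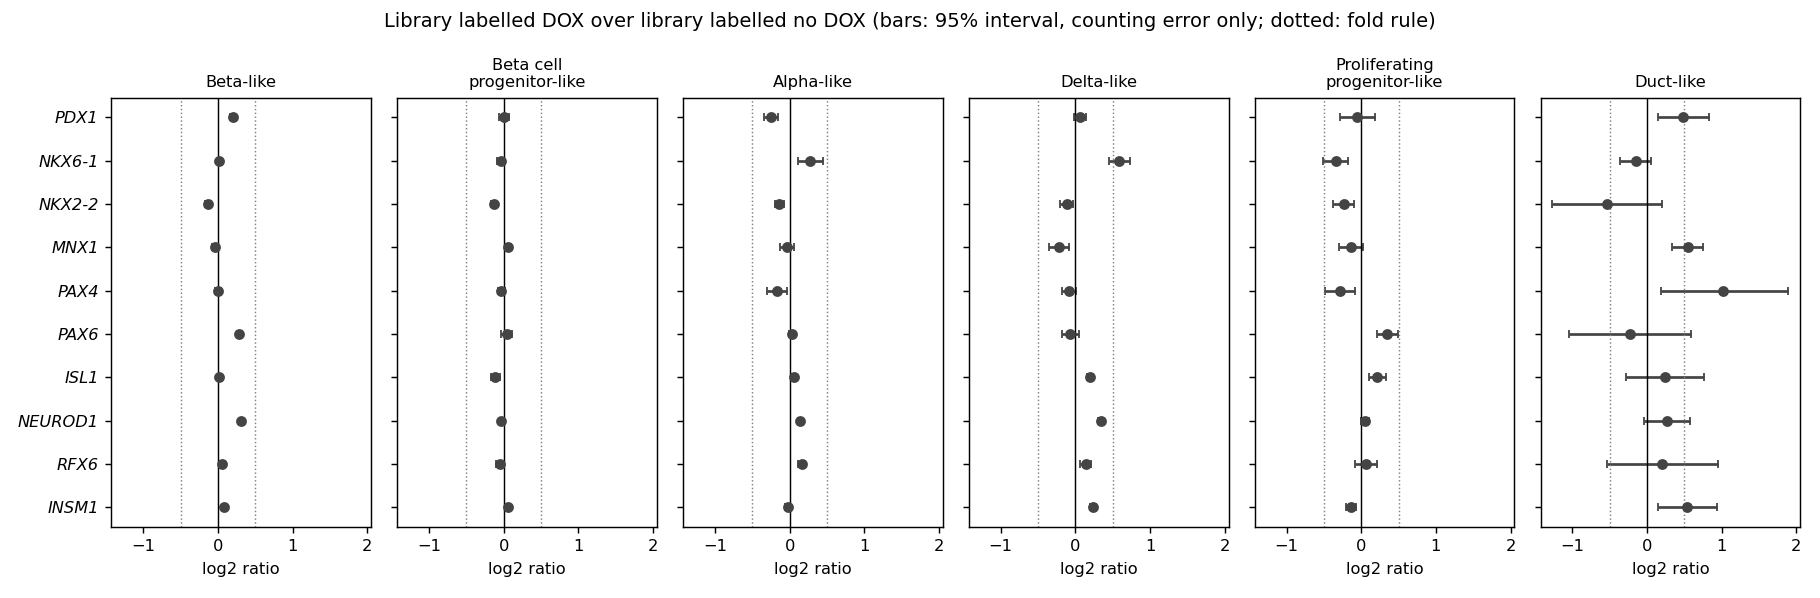
Log2 ratio of DOX over no DOX, by library label (horizontal axis), for the 10 factors in each named class, with 95% intervals for counting error and dotted lines at 0.5 in either direction. Outside the duct-like class only NKX6-1 in delta-like cells, at 0.59, lies beyond a dotted line, and the duct-like intervals are the widest.

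A further 22 islet transcription factors and 12 genes of granules, channels and receptors were read beside the members. Between the libraries in beta-like cells 0 of 12 of these factors and 0 of 10 of the other genes with at least 5 CPM passed 0.5. MAFA, a late beta cell factor, had the largest ratio, 0.48 (0.41 to 0.55), at 21.5 and 30.0 CPM. Over all cells 1 of 17 factors was higher, MAFA (0.70), and 1 lower, HHEX (-0.63), where 0.402% and 0.613% of genes were. These ratios also depend on how many cells of each class a library held, and that part was not tested. The beta-like class held 7035 and 9871 cells and the delta-like class 2644 and 1960. In alpha-like cells 0 of 14 factors were higher and 3 lower, where 0.582% and 0.723% of genes were. In progenitor-like cells 0 of 13 factors were higher and 1 lower, where 0.573% and 0.536% of genes were. Delta-like cells had 0 of 13 in either direction, where 0.459% and 0.499% of genes were higher and lower. The proliferating class had 0 of 15 higher and 1 lower, against 2.24% and 2.34% of genes. Duct-like cells, 152 and 179 in number, had 2 of 12 higher and 3 lower, against 10.2% and 11.7% of genes. Of the granule, channel and receptor genes 1 of 10 was higher in the proliferating class and 2 of 7 in duct-like cells, beside the same shares of all genes. None passed 0.5 in the other classes or over all cells. In progenitor-like over beta-like cells 9 of 14 factors were higher and 1 lower, with a median log2 ratio of 1.35 against 0.59 for all genes, of which 26.4% were higher and 3.82% lower. Among those higher were NEUROD4, a relative of NEUROD1, at 92 against 7.10 CPM, and FEV, the factor of serotonin-producing cells, at 1744 against 150 CPM. MAFA was the lower one, at 1.78 against 26.1 CPM.

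In alpha-like cells 4 of 16 factors were higher and 3 lower, and in delta-like cells 3 of 15 were higher and 5 lower. Over all genes 6.06% were higher and 5.33% lower in alpha-like cells, and 5% and 5.88% in delta-like cells. HHEX, the delta cell factor, stood at 185 against 1.77 CPM. NEUROG3, which starts the endocrine program, was at most 0.983 CPM in any endocrine class. Of the granule, channel and receptor genes 9 of 9 were lower in duct-like than in beta-like cells, where 13.6% of all genes were. In progenitor-like cells 4 of 10 were higher and 2 lower, against 26.4% and 3.82% of all genes. The prohormone convertase PCSK1 stood at 744 against 166 CPM and the zinc transporter SLC30A8 at 177 against 603 CPM.

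Antisense partners were read as well, since the strand setting of the counting is not given in the sources used here. MNX1-AS1 was highest in progenitor-like cells (60.5 CPM), as MNX1 was, and stood at 16.1 CPM in beta-like cells. PDX1-AS1 and NKX2-2-AS1 were under 1 CPM in each class of either library.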

How the data were processed

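The deposited values are UMI counts per gene and barcode as the authors' counting gave them, not normalized, from 1 library per condition (550240855 UMIs labelled no DOX and 520849221 labelled DOX). The file header names Cell Ranger 3.0.2, whereas the methods name kallisto and bustools, so the published clusters may rest on other counts. Per the labels the build is GRCh38, and the annotation behind these Cell Ranger counts is not given in the sources used here. Libraries were grouped by their treatment label.

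A barcode needed 1000 UMIs, and Scrublet (scanpy 1.11.5, default settings) removed 26.6% and 26.5% of these as doublets. Counts were scaled to 10000, log-transformed, and regressed on total UMIs and mitochondrial share. Leiden clustering (leidenalg 0.10.2, resolution 0.2, finer 0.5) used 50 principal components and 3 neighbours in each library. Members, listed genes and SOX9 were left out of the clustering genes. Clusters were named from the study's marker lists, which come from the same libraries: the markers had to average a log2 fold of 1, with 3 of them past it, 1 among the 10 leading genes, and no other class ahead there. These thresholds were set with the data seen.

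UMIs were summed per class. Levels carry exact Poisson, ratios exact conditional binomial and shares Clopper-Pearson intervals at 95% (scipy 1.17.1). The 3′ counts do not serve to compare levels between genes. Poisson counts were simulated for the comparison of the libraries over all barcodes, at a lower depth and without spread between cells or libraries. Of the intervals over 10345 genes, 95.4% held the true value. The intervals are built for such counts, so this checks the calculation only. Positions are from GENCODE 44. The members and lists were chosen with earlier results of these data known. The genes named are the members, SOX9, the listed factors, granule and antisense genes, hormones, and the 3 genes most like each member, apart from some that are not reported here. Alternatives covered the filters, doublets, clustering, totals, thinning, scaling and each library alone. Transcript-level counts and protein sequences were not used here.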

Additional observations from a re-analysis of the deposited data

Results flagged for a closer look

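For 4 members the ratio of DOX over no DOX, by label, was above 0 in 1 class and below 0 in another, with both counting intervals on their own side of 0 and a ratio of at least 0.5 in 1 of the classes. PDX1, NEUROD1, ISL1 and RFX6 also had intervals on both sides of 0 in different classes, but no ratio of that size. How many of all genes meet the same rule was not counted, so the number of members has no background beside it. In the duct-like class 10.2% of all genes were higher by at least 0.5 and 11.7% lower. With 1 library per condition the difference between the classes was not tested. NKX6-1 had a log2 ratio of 0.59 (0.45 to 0.73) in delta-like cells and -0.34 (-0.51 to -0.17) in the proliferating class. MNX1 had 0.55 (0.34 to 0.75) in duct-like cells and -0.22 (-0.35 to -0.09) in delta-like cells. PAX4 had 1.01 (0.19 to 1.89) in duct-like cells, at 7.14 and 14.4 CPM, and -0.28 (-0.49 to -0.08) in the proliferating class. INSM1 had 0.54 (0.15 to 0.93) in duct-like cells and -0.14 (-0.21 to -0.07) in the proliferating class. The duct-like and proliferating classes, of 331 and 970 cells, were the smallest named ones. With doublets kept the sides below 0 were near 0 or above it, at -0.0017 for NKX6-1, -0.00041 for MNX1, -0.07 for PAX4 and 0.05 for INSM1. The sides above 0 were then 0.44 for NKX6-1, 0.23 for MNX1, -0.0912 for PAX4 and -0.14 for INSM1.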

How the results depend on the processing

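Over the 17 other settings that give log2 ratios of the members, 1406 of 1470 recomputed ratios kept their sign, and 178 of 184 recomputed counts of members past the limit stayed within 1.5 times the value given. Many of these counts were 0 and stayed 0, so the total says little about the counts above 0. The rule also passes a change from 3 to 2, as for the count lower in delta-like cells with doublets kept. The count lower in progenitor-like cells was 1 with at least 2000 UMIs and 1 in the library labelled no DOX alone. With doublets kept, the count lower was 0 in the proliferating class, a name then met by a cluster of 14111 cells, and 4 in duct-like cells, where the library ratios of PAX4 and INSM1 reversed to -0.0912 and -0.14. Centred on the median of all genes, the count higher in progenitor-like cells was 0 and the count lower in the proliferating class was 3. The matching shares of all genes were not counted. The median number of members per beta-like cell was 3 at 2500 UMIs and 8 without thinning in both libraries. At Leiden resolution 0.5, where the GPC3 and GHRH clusters have no name, the progenitor-like over beta-like ratio of NKX6-1 was -0.17. With a minimum of 20 CPM, 0.282% and 0.370% of genes were higher and lower between the libraries over all cells, and 0.156% and 0.800% in beta-like cells. The cause of these changes was not tested. The centring of class ratios, the restriction to named classes, the split of the Beta-1-like clusters, the correlations without the duct-like cluster and the other settings of that comparison were chosen after seeing the data. No paired analysis was possible because each condition has 1 library, and for the same reason no replicate could be left out. The number of cells, 331, limits the duct-like class.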

Other observations

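The proliferating progenitor-like cells, led by cell cycle genes such as TOP2A and MKI67, held factors of several classes. PAX6 stood at 90.0 and 115 CPM there, overlapping the beta-like range. FEV stood at 519 CPM and INSM1 at 391 CPM over both libraries in the same cells. In the barcodes dominated by mitochondrial RNA all 10 members were still counted, from 41.3 CPM for PDX1 to 361 CPM for NEUROD1. A smaller alpha-like cluster of 1111 cells, whose medians were 2822 UMIs and 0.801% mitochondrial UMIs, held SST at 60816 CPM and PAX6 at 151 and 188 CPM, against 289 and 294 CPM in the larger alpha-like cluster of 8118 cells (8.87% mitochondrial UMIs).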
